A study of Mus musculus with 2 samples.

Results

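The genes described here are the TGF-beta receptors and the SMAD proteins of the mouse T-cell line P5424. Members were the non-control probes that the scanner files name Tgfbr1, Tgfbr2, Smad1 to Smad7 or Smad9. This gave 19 probes of 10 genes, out of 55681 probes on the array and 22221 genes that could be named. The study profiled total RNA of P5424 on 2 one-colour Agilent mouse arrays with probes of 60 bases. Both samples have the same labels: P5424 cells with Rag2 and P53 knocked out, no treatment, and medium with fetal bovine serum and 2-mercaptoethanol. They form 1 group, called replicate 1 and replicate 2, with no second condition, so no gene could be tested between conditions. Nothing in the labels says that they came from separate cultures, so their spread may be technical. P5424 is 1 cell line, and its values describe that line rather than a thymocyte population.

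TGF-beta is a secreted dimer that joins a type II receptor (Tgfbr2) to a type I receptor (Tgfbr1), and the activated type I kinase phosphorylates the receptor-regulated SMADs. Smad2 and Smad3 carry TGF-beta and activin signals, while Smad1, Smad5 and Smad9 carry signals of bone morphogenetic proteins (BMPs). Both branches share the partner Smad4, and Smad6 and Smad7 are inhibitors that the pathway itself induces. In T cells TGF-beta signalling restrains proliferation and takes part in thymocyte development.

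The 4 probe sequences below are shown as examples of receptor and SMAD probes at different positions on their transcripts. The first 2 are whole probes. Each of the 4 probes has a reading frame that is open up to its last codon, so an open frame does not set these 2 apart. In the Tgfbr2 probe the capitals mark a closing stop codon in that frame. The other 2 are stretches of 30 bases from probes that start farther along their transcripts, and their capitals mark AATAAA, the common polyadenylation signal.
Tgfbr2 probe, base 2045 of NM_009371: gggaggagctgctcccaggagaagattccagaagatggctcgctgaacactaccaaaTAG
Smad1 probe, base 872 of NM_008539: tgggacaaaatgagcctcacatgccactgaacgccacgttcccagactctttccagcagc
Tgfbr1 probe, base 5605 of NM_009370, bases 28 to 57 of the probe: ggaagcaatgcaAATAAAcaactttttccc
Smad3 probe, base 5030 of NM_016769, bases 4 to 33 of the probe: aaacgcccttctAATAAActtttcaccgta

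Of the 19 member probes, 14 were well above background on both arrays by the scanner software's own call, which is what detected means here. That is 73.7% of them, where 40.1% of all probes on the array were detected. The other 5 were well above background on neither array. Counted by gene, 7 of 10 members had a detected probe, against 51.7% of all named genes. By number of probes, all 6 members with several probes were detected, and so was 1 of the 4 members with a single probe, Smad2. Across the array, the detected share was 45.1% of genes with 1 probe, 64.4% with 2 and 72.2% with 3 or more. Both receptors, the TGF-beta SMADs Smad2 and Smad3, the shared Smad4, and the BMP SMADs Smad1 and Smad5 were detected. The inhibitors Smad6 and Smad7 and the third BMP SMAD, Smad9, were not well above background.

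**Figure D1:**
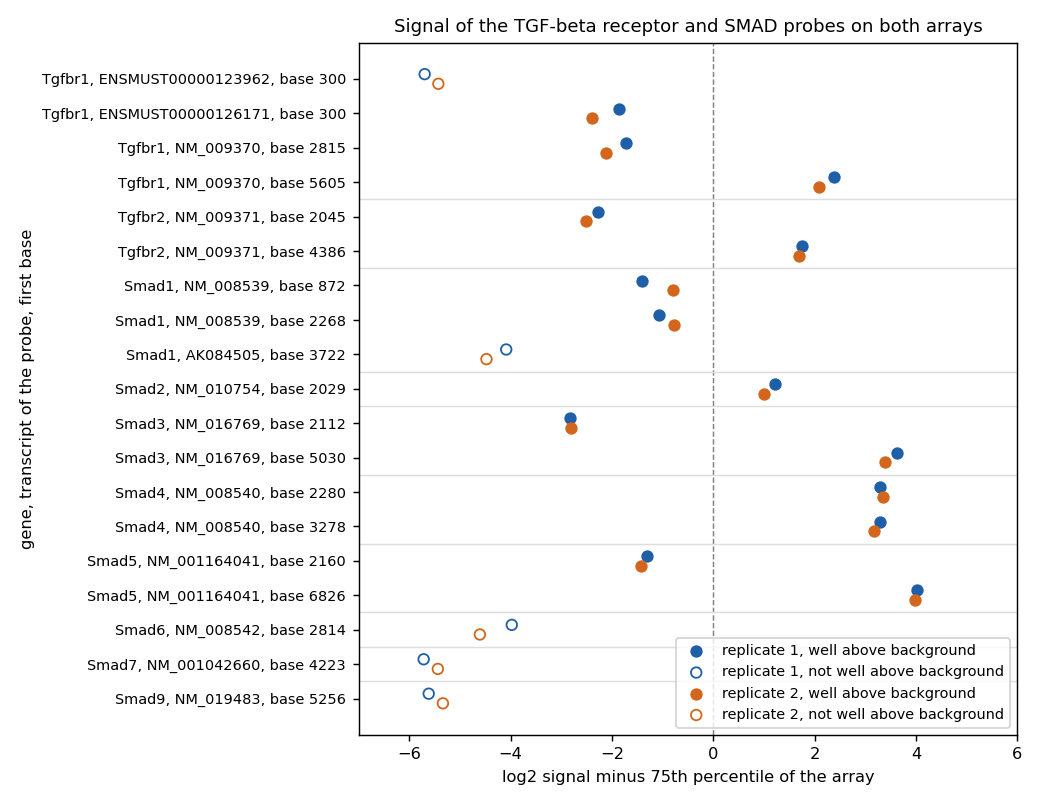
Signal of each of the 19 member probes (rows) on replicate 1 and replicate 2, as log2 signal minus the 75th percentile of its array. Filled points are well above background and open points are not: the single probes of Smad6, Smad7 and Smad9 and 1 probe each of Tgfbr1 and Smad1 are open on both arrays.

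Values below are signals in intensity units on replicate 1 and replicate 2, followed by the log2 signal relative to the 75th percentile of the array as mean ± SD (n = 2). That percentile stood at 324 units on replicate 1 and 299 on replicate 2. Positions are on mouse build mm9, as the files give them. Whether a position lies in an exon, an intron or a UTR was not analysed here. Brightness depends on the probe's sequence, so a value does not rank one gene above another.

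Tgfbr1, the type I receptor kinase, had 4 probes on chromosome 4, of which 3 were detected. The probe at base 5605 of NM_009370 (47427736 to 47427795, plus strand) read 1701 and 1265 units, or 2.24 ± 0.22. Its probe at base 2815 of the same transcript (47424946 to 47425005) read 98.7 and 68.9 units, or -1.92 ± 0.28. These probes therefore disagreed: the one at the later base was above the 75th percentile of both arrays and the other was below it on both. The other 2 Tgfbr1 probes were designed on Ensembl transcripts. The probe of ENSMUST00000126171 (47395833 to 47395892) read 89.2 and 56.5 units, or -2.13 ± 0.38. The probe of ENSMUST00000123962 (47374114 to 47374173) read 6.23 and 6.95 units and was not well above background, with both signals replaced by the software's surrogate value. All 3 detected Tgfbr1 probes were lower on replicate 2.

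Tgfbr2, the receptor that binds the ligand first, had 2 probes on the minus strand of chromosome 9, both detected. The probe at base 4386 of NM_009371 (115997155 to 115997214) read 1090 and 965 units, or 1.72 ± 0.04. Its probe at base 2045 (115999496 to 115999555), whose sequence closes on a stop codon, read 66.9 and 52.2 units, or -2.40 ± 0.17. As for the NM_009370 probes of Tgfbr1, the probes lay on opposite sides of the 75th percentile on both arrays.

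Among the SMADs of the TGF-beta branch, Smad2 had 1 probe, on chromosome 18, which read 750 and 598 units, or 1.11 ± 0.15. Smad3 had 2 probes on the minus strand of chromosome 9. One of them, at base 5030 of NM_016769 (63494574 to 63494633), read 3988 and 3112 units, or 3.50 ± 0.17. The other, at base 2112 (63497492 to 63497551), read 45.4 and 42.6 units, or -2.82 ± 0.02. Smad3 thus had the widest disagreement between probes of 1 transcript among the members, on both arrays. Smad4, the partner of all receptor-regulated SMADs, had 2 probes on chromosome 18. One, at base 2280 of NM_008540, read 3170 and 3033 units, or 3.32 ± 0.04, and the probe at base 3278 read 3175 and 2716 units, or 3.24 ± 0.08. The Smad4 probes were above the 75th percentile on both arrays.

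Among the SMADs of the BMP branch, Smad5 had 2 detected probes on the plus strand of chromosome 13. The later one, at base 6826 of NM_001164041 (56843578 to 56843637), read 5267 and 4743 units, or 4.01 ± 0.02. The earlier one, at base 2160 (56838912 to 56838971), read 131 and 111 units, or -1.37 ± 0.08. Smad1 had 3 probes on the minus strand of chromosome 8, and both probes of NM_008539 were below the 75th percentile. The probe at base 872 (81880234 to 81880293) read 123 and 173 units, or -1.09 ± 0.43. The probe at base 2268 (81863015 to 81863074) read 155 and 173 units, or -0.93 ± 0.20. The third, on the cDNA AK084505 (81865492 to 81865551), read 19.1 and 13.3 units and was not well above background. Smad9 had 1 probe, on chromosome 3 (54605068 to 54605127), which read 6.61 and 7.35 units, both surrogate values, and was not well above background.

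The inhibitory SMADs had 1 probe each. Smad6, which acts mainly on the BMP branch (chromosome 9, 63800980 to 63801039), read 20.5 and 12.2 units. Smad7, which blocks the type I receptor (chromosome 18), read 6.17 and 6.87 units, both surrogate values. The lowest signal that the software called well above background was 28.9 units on replicate 1 and 31.1 on replicate 2, so these readings are bounds and not levels. The negative control spots had a median of 6.55 and 7.50 units. Smad6 differed from Smad7 and Smad9 in the weaker call of the software: its signal was positive and significant on both arrays. Under that call 8 member genes were detected, with Smad6 as the addition, while 60.3% of all probes and 67.5% of all named genes passed it.

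Probes of 1 transcript disagreed widely in 4 of the 6 members that had them. The ratio of the later to the earlier probe was 87.9 on replicate 1 and 73.0 on replicate 2 for Smad3. It was 40.2 and 42.6 for Smad5, 17.2 and 18.4 for Tgfbr1, and 16.3 and 18.5 for Tgfbr2. For Smad1 the later probe lay 0.33 and 0.00 above the earlier one on the log2 scale, and for Smad4 the difference was 0.00 and -0.16. In the 4 genes with a wide gap the probes started between 2341 and 4666 bases apart, and in Smad1 and Smad4 they started 1396 and 998 bases apart. Across the array, 599 transcripts had a first and a last probe that were both detected and started more than 2000 bases apart. In 26.7% of them the last probe was more than 8-fold brighter on both arrays, and in 8.85% the first probe was. These ratios set probes of different sequence side by side and are not amounts of transcript, and what sets them was not tested. The cuts of 2000 bases and 8-fold fall between the 4 wide pairs and those of Smad1 and Smad4. Transcripts with closer probes were not counted, so the shares do not bear on distance.

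**Figure D2:**
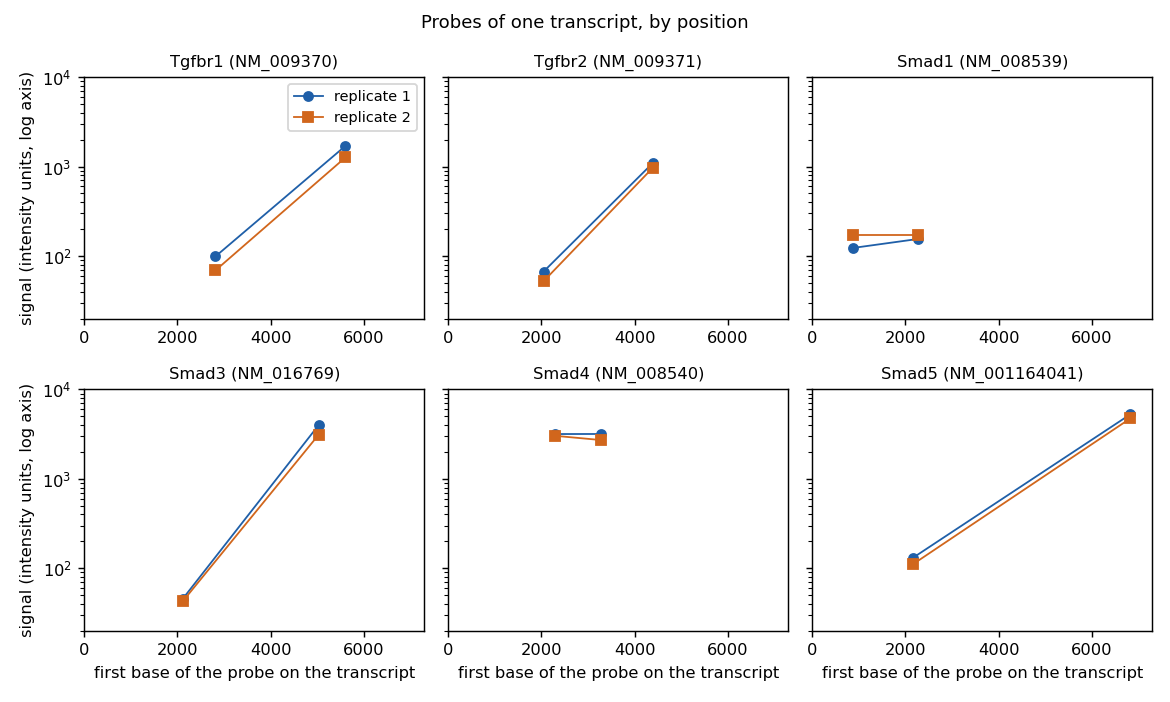
Signal in intensity units (log axis) of the detected probes of 6 member genes against the first base of the probe on its RefSeq transcript, for replicate 1 and replicate 2. The later probe is far brighter for Tgfbr1, Tgfbr2, Smad3 and Smad5 (16.3-fold to 87.9-fold), while the probes of Smad1 and Smad4 stay close together.

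The motif AATAAA, searched on the strand of the probe alone, was present in 6 of the 19 member probes and in 10.1% of all probes. It stood in the probes at base 5605 of Tgfbr1, base 5030 of Smad3 and base 3278 of Smad4, in the Smad2 and Smad7 probes, and in the undetected Tgfbr1 probe of ENSMUST00000123962. Of these, 4 were detected, and 49.7% of all probes with the motif were. The bright probes of Tgfbr2 and Smad5 did not hold these letters. A match is a description of the probe and not evidence of a site in use.

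The arrays agreed closely on the members. The difference between replicate 2 and replicate 1 ranged from 0.03 to 0.61 in size on the log2 scale over the 14 detected probes, with a median size of 0.22 against 0.18 over all detected probes. No member probe was over 2-fold apart, as 1.15% of all detected probes were. The widest was the Smad1 probe at base 872, which was 0.61 higher on replicate 2 (1.53-fold), and 7.05% of all detected probes differed by more. The other Smad1 probe of that transcript was 0.28 higher. The Tgfbr1 probes were lower on replicate 2 by 0.54 (ENSMUST00000126171), 0.40 (base 2815) and 0.31 (base 5605). Each member probe was printed on a single spot, for which the scanner software gave an error of 10% to 18.5% of the signal among the detected ones. With 1 array for each replicate, no test of a single probe was possible.

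**Figure D3:**
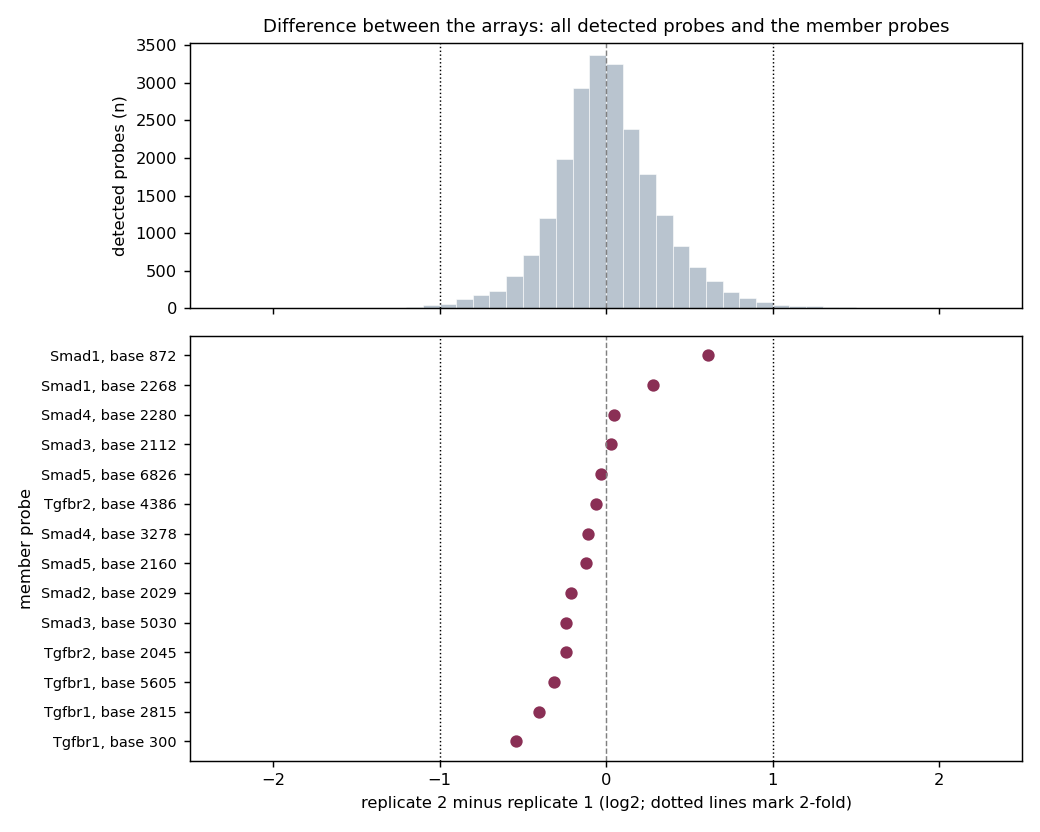
Top, number of detected probes of the whole array by their difference between the arrays (replicate 2 minus replicate 1, log2). Bottom, the same difference for the 14 detected member probes, all inside the dotted lines at 2-fold, from the Tgfbr1 probes at the low end to Smad1 at the high end (0.61).

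Of the 14 detected member probes, 10 were lower on replicate 2 (71.4%), against 50.7% of all detected probes. Several probes share a gene, so these are not 14 independent readings. Both Smad1 probes were higher on replicate 2 and all 3 detected Tgfbr1 probes lower under each of 7 ways of scaling or correcting the values. The Smad3 probe at base 2112, the Smad4 probe at base 2280 and the Smad5 probe at base 6826 changed sign among them. The 7 ways are not independent checks. Keeping outlier spots left the member values as they were. Scaling to the detected probes or to the array median moves every probe by the same amount. Scaling by the array median moved the difference of all detected probes to a median of -0.23 and left 12 member probes lower on replicate 2, as were 78.4% of all detected probes.

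**Figure D4:**
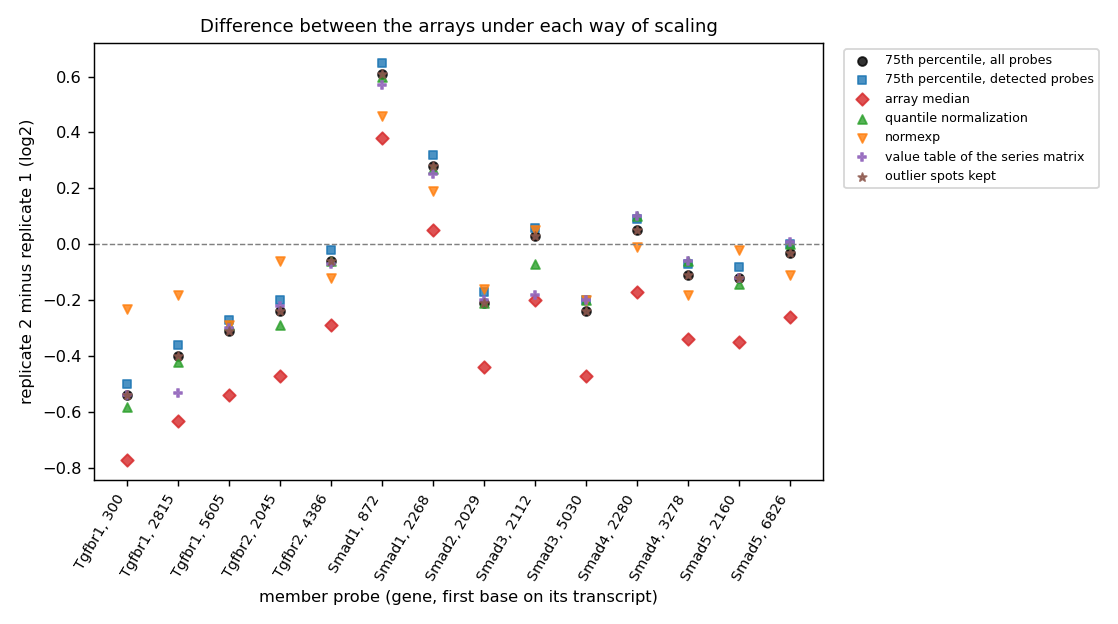
Difference between the arrays (replicate 2 minus replicate 1, log2) for each detected member probe under 7 ways of scaling or correcting the signals. The Smad1 points lie above 0 and the Tgfbr1 points below 0 throughout, and the array median (diamonds) lowers every probe.

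The rest of the pathway was described by lists of genes in order of their role. Over all of them, 77 of 133 genes were detected (57.9%), where all named genes gave 51.7%. That share of all named genes is the background for each list count below. Each gene is given by the brightest of its detected probes, and its other probes could be undetected. Acvr1b, Acvr2b, Rgmb, Gdf3, Ltbp3, Nedd4l and Wwp1 were detected with 1 of 2 probes, Tdgf1 with 1 of 3 and Ltbp4 with 2 of 3. A gene named as not detected was well above background on neither array unless stated, and members of a list that are not named are in its counts alone.

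Of the other type I and type II receptors, 5 of 10 were detected (50%, against 51.7% of all named genes). Acvr1b, the type I activin receptor, had 0.74 ± 0.14 and Acvr2b, a type II activin receptor, 1.94 ± 0.13. Bmpr2, a type II BMP receptor, had 0.67 ± 0.35. Acvrl1 was detected at -2.95 ± 0.13 and the anti-Müllerian hormone receptor Amhr2 at -1.90 ± 0.05. The BMP type I receptors Acvr1, Bmpr1a and Bmpr1b, and Acvr1c, were not well above background, and Acvr2a was so on 1 array. Bmpr1a had 1 probe, and a gene that was not well above background is not shown to be absent. Of 7 co-receptors and decoys, 4 were detected: Tgfbr3 (betaglycan, which presents TGF-beta to its receptors) at 0.69 ± 0.05, Tdgf1 at -1.25 ± 0.26, Rgma at -0.77 ± 0.29 and Rgmb at -0.20 ± 0.20. Eng, the decoy receptor Bambi and Hfe2 were not.

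Of 11 TGF-beta and activin ligands, 7 were detected. Tgfb1, the main TGF-beta of lymphocytes, had signals of 2250 and 2505 units (2.93 ± 0.19), and Inhbb, the activin B subunit, 23380 and 16864 units (6.17 and 5.82). Tgfb3 was at -2.76 ± 0.18 and Inha at -1.43 ± 0.24. Tgfb2, Inhba and Mstn were not well above background, and Nodal was so on 1 array. Of 18 BMP and GDF ligands, 4 were detected (22.2%), below the share of all genes. Bmp7 had 10628 and 9470 units (5.01 ± 0.03), and Bmp8a (-1.32 ± 0.14), Gdf3 (-2.95 ± 0.06) and Gdf9 (-1.46 ± 0.11) lay below the 75th percentile. Bmp2, Bmp4 and Bmp5 were among those well above background on neither array.

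Latent TGF-beta is stored with binding proteins and released at the cell surface, and 6 of 12 genes of that step were detected. Ltbp4 had 3.29 ± 0.10 and Ltbp3 -2.99 ± 0.14. Of the docking receptors of latent TGF-beta, Lrrc33 had 4.35 ± 0.12 and Lrrc32 (GARP) 0.17 ± 0.68, with signals of 509 and 240 units. Ltbp1, Ltbp2 and the integrin subunit Itgb6 were not detected. Of 9 extracellular antagonists, Fstl3 (0.68 ± 0.15) and Twsg1 (0.27 ± 0.01) were detected. Nog and Fst were not, and Chrd was well above background on 1 array.

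The genes that act inside the cell come next. Of 14 adaptors and anchors, 12 were detected, including the receptor-binding immunophilin Fkbp1a at 8.56 ± 0.43, Hgs at 4.91 ± 0.02, Strap at 3.69 ± 0.03 and Zfyve16 at -0.98 ± 0.10. Zfyve9 (SARA, which brings Smad2 and Smad3 to the receptor) and Dab2 were not well above background. All 18 genes of SMAD turnover and dephosphorylation were detected, and 14 of them with every probe. Among the 18 were the ubiquitin ligases Smurf1 (-0.37 ± 0.31), Smurf2 (1.01 ± 0.09), Nedd4l (1.72 ± 0.07) and Wwp1 (-2.09 ± 0.36). Of 16 nuclear cofactors, 12 were detected, including the acetyltransferases Crebbp (4.08 ± 0.24) and Ep300 (0.57 ± 0.11), the ubiquitin ligase Trim33 (0.30 ± 0.34) and the repressor Ski (-1.78 ± 0.41). Zeb2 and Zfp423 were not, and Foxh1 and E2f4 were well above background on 1 array. No ligand-treated sample was analysed here, so none of these counts measures pathway activity.

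Of 22 genes that SMADs are known to induce in various cells, 10 were detected (45.5%, against 51.7% of all named genes). The other 12 were well above background on neither array. Id1, Id2 and Id3, direct BMP targets in many cells, were detected, with Id1 at 2.39 ± 0.19, Id2 at 2.64 ± 0.15 and Id3 at -0.23 ± 0.20, as was the cell cycle inhibitor Cdkn1c at 1.77 ± 0.17. Ctgf and Tgfbi, widely used TGF-beta targets of fibroblasts and epithelia, were not well above background. Smad6 and Smad7, which the pathway induces too, were likewise not well above background, with 1 probe each. Skil (409 and 269 units, 1 of 2 probes) and Pmepa1 (1040 and 723 units) of this list were detected.

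**Figure D5:**
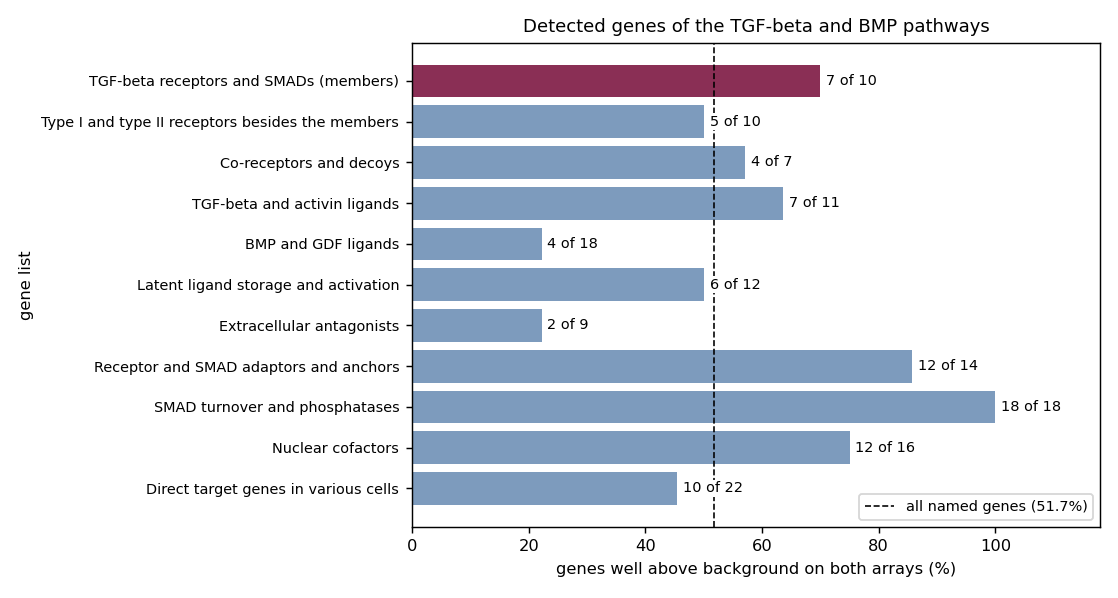
Percent of genes with a probe well above background on both arrays, for the receptor and SMAD members (top bar) and 10 lists of other pathway genes, with the number detected of the number on the array beside each bar. The dashed line is the share of all named genes (51.7%): SMAD turnover (18 of 18) and adaptors (12 of 14) lie above it and BMP ligands (4 of 18) and antagonists (2 of 9) below it.

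Replicate 1 had 23649 probes well above background and replicate 2 had 22923. All 15 T-lineage markers were detected, where 51.7% of all named genes were. Of 31 markers of B, myeloid, natural killer, erythroid and stromal cells, 8 were detected. These were the myeloid markers Itgam (4.40 ± 0.17), Csf1r (-1.61 ± 0.63) and Cd14 (-2.76 ± 0.13), the natural killer marker Nkg7 (1.36 ± 0.16), the B-cell marker Cd79a (-2.74 ± 0.11), the erythroid marker Klf1 (-2.19 ± 0.05), and Pdgfrb (2.33 ± 0.07) and Pecam1 (0.52 ± 0.09) of stroma and endothelium. Nkg7 and Cd79a were detected with 1 of 2 probes, and Itgam and Csf1r with 2 of 3. Col1a1, Col1a2, Col3a1 and Epcam were not detected, and the part of other cells in the receptor signals was not tested. The probes of Rag2 (2132 and 2086 units, and 90.2 and 88.5 units) and of Trp53 (746 and 996 units), genes labelled as knocked out, were well above background. The labels do not give the deleted parts, so these probes do not check the genotype. On replicate 2, 1 negative control spot reached 101 units. The dimmer probes of Tgfbr2 and Smad3 and the Tgfbr1 probes at base 2815 and of ENSMUST00000126171 read less than that spot there, and no detected member probe read less than the highest control of replicate 1 (15.1 units). Some detected list genes also read less than the 101-unit spot on replicate 2. They included Acvrl1 (36.3 units), Amhr2 (82.2), Tgfb3 (40.4), Gdf3 (39.9) and Ltbp3 (35.1), and the markers Cd79a (42.5) and Cd14 (47).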

How the data were processed

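The members and gene lists were chosen with earlier results of these data known. Per the file headers and the submitters' processing notes, the authors' scanner values are intensity values from Agilent Feature Extraction 10.5.1.1, with a spatial background subtracted and a multiplicative trend removed within each array. The deposited series table holds log2 values for the same spots. Its columns both have a median of 5.18, and its offset and centring are not given in the sources used here.

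Outlier spots were dropped (182 and 186). The log2 processed signal was averaged per probe and the 75th percentile of the array subtracted. A probe was detected when at least 50% of its spots were well above background on both arrays, and a gene when any probe was. Members follow the name in the files. Other genes were named through a RefSeq table of GRCm38.p6 by accession (26762 probes), symbol (3819) or unique synonym (639). Genes named in the text are the first 4 detected and first 3 undetected of each list, and the smaller class when it has at most 5; 1 gene under this rule is not reported here by name. The markers of other cell types, and Skil and Pmepa1 among the targets, were named after their values were seen, and the 4 probe sequences chosen so too. Alternatives covered scaling, background correction (limma 3.58.1, normexp with offset 50), the deposited table, the detection rule and each array alone. The code for detection and 2-fold counts was run on simulated data with the detection flags given as input. That run checks the code and not the accuracy of a detection call. Protein sequences and a comparison of them were not used here. Precision is limited by the number of arrays.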

Additional observations from a re-analysis of the deposited data

How the results depend on the processing

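The member counts ranged from 10 to 16 probes and from 5 to 8 genes across the detection rules. With 1 array sufficing, outlier spots kept, or either replicate left out, 14 member probes and 7 member genes were detected, as with both arrays. Each member probe had the same call on both arrays and no outlier flag, so these alternatives could not change the member counts. Of all probes and all named genes, 43.6% and 54.3% were detected with 1 array sufficing, and 40.1% and 51.7% with outlier spots kept. The shares were 41.2% and 52.6% without replicate 1, and 42.5% and 53.4% without replicate 2. Requiring a signal above the highest negative control spot of each array left 10 probes (32.4% of all probes), and a positive and significant signal gave 16 (60.3% of all probes). Requiring every probe of a gene left 5 member genes, without Tgfbr1 and Smad1, and 44.6% of all named genes. The median size of the difference between the arrays over the detected member probes ranged from 0.17 (normexp) to 0.36 (array median), and no member probe was over 2-fold apart under any of the 7 ways of scaling or correcting. Over all pathway lists the count ranged from 64 (every probe required, 44.6% of all named genes) to 98 (positive and significant signal, 67.5%). By list, the positive and significant signal raised BMP and GDF ligands from 4 to 10 and antagonists from 2 to 4. Among others, it also raised direct targets from 10 to 15 and nuclear cofactors from 12 to 15. Requiring every probe lowered, among others, SMAD turnover from 18 to 14, the receptors from 5 to 3 and the co-receptors from 4 to 2. Both arrays have 1 slide in their headers, so a slide block was not run. No paired analysis was possible because there is 1 group. Signals under the lowest one called well above background (28.9 and 31.1 units) are bounds only.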

Other observations

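Among the detected genes of the pathway lists, none was over 2-fold apart between the arrays. Lrrc32 came nearest, at 0.65 on replicate 1 and -0.32 on replicate 2, with a single probe. E2f4 read 46.8 units on replicate 1, well above background, and 9.47 on replicate 2, not so. Further genes of the lists, named after their values were seen, were Hdac1 with 50164 and 47051 units, Eif3i with 13187 and 15581, and the phosphatase Ctdspl with 5285 and 5616. The integrin subunit Itgae, a TGF-beta target in T cells, read 88.0 and 69.4 units, and Foxp3, which TGF-beta can induce in T cells, was well above background on neither array. Pmepa1, a target that also promotes receptor turnover, was detected with both of its probes, at 1040 and 723 units for the one with the higher mean.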
